A study of Mus musculus with 6 samples.

Results

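Splicing of 10 genes that identify cortical interneurons or make their transmitter was compared in neurons that received N40K and in control neurons. They were chosen by name: Gad1 and Gad2 for synthesis of GABA, Lhx6 and Dlx1 among transcription factors, Pvalb, Calb1 and Calb2 among calcium-binding proteins, and Sst, Npy and Vip among neuropeptides. All 10 had a row in the deposited table of 15705 genes, and none was removed by a filter. The table gives each gene 1 score per library, named Sd and read here as splicing deficiency, so that a higher value would stand for less complete splicing. The values were treated as a linear ratio. The formula of the score is not given in the sources used here. The score is not an expression level, so these data cannot show whether interneuron markers were abundant, and the labelled cell type could not be checked against marker levels.

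The cells were cortical neurons of C57BL/6 mouse embryos at embryonic day 18, exposed to lentivirus for 3 days from day 7 in vitro. Control neurons (3 libraries) received the FCK1.3GW vector with EGFP, and N40K neurons (3 libraries) the FCK1.3GW-N40K vector. N40K is an N-terminal fragment of U1-70K, a protein of the U1 snRNP, and the series asks how disturbance of this complex in Alzheimer's disease affects neurons. Both vectors carry a short CaMKII promoter, a promoter used to drive expression in excitatory neurons, together with a WPRE and long terminal repeats. The labels give neither the share of cells transduced nor the share of interneurons, nor whether each library had a culture of its own, and the p-values then measure only a spread of these samples that may be technical. RNA came from whole cultures, in which fewer cells of a type and less RNA per cell cannot be told apart.

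Cortical interneurons release GABA, which glutamate decarboxylases make from glutamate, and they inhibit the surrounding network. They arise in the ventral forebrain under Dlx and Lhx6 transcription factors and fall into classes marked by parvalbumin, somatostatin or vasoactive intestinal peptide. The U1 snRNP recognises the start of an intron by pairing with the last bases of the exon and the first bases of the intron. CAG and AAG are common ends of the exon there.

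The exon ends of the 3 genes whose library groups did not overlap (Lhx6, Pvalb and Dlx1) are shown because the exon part of the U1 pairing site lies in them. Each line gives 10 bases of 1 exon and 10 of the next in the spliced transcript, 5′ to 3′, with the last 3 exon bases in capitals. They come from 1 transcript per gene of the GENCODE mouse release M21 (GRCm38), on the minus strand of chromosome 2 for Lhx6, the minus strand of chromosome 15 for Pvalb and the plus strand of chromosome 2 for Dlx1.
Lhx6 exon 1 to exon 2: caccgacCAGgtgatggccc
Lhx6 exon 2 to exon 3: gcctgccATGgctcagtcag
Lhx6 exon 3 to exon 4: tctgctcAAGgtcaacaacc
Lhx6 exon 4 to exon 5: actacttCAGccgatttgga
Lhx6 exon 5 to exon 6: gccgagaACGggaacggtct
Lhx6 exon 6 to exon 7: gcaattgCAGgttatgcagg
Lhx6 exon 7 to exon 8: ggtcatcCAGgtgtggtttc
Lhx6 exon 8 to exon 9: tacattgAGAgtcaggtaca
Lhx6 exon 9 to exon 10: gggtgagAAGgtcatccttt
Pvalb exon 1 to exon 2: gcctttgCTGctgcagactc
Pvalb exon 2 to exon 3: atgagctGGGgtccattctg
Pvalb exon 3 to exon 4: ggggttgAAGaattctccac
Dlx1 exon 1 to exon 2: gaggaccCAGgggcggactc
Dlx1 exon 2 to exon 3: acagacgCAGgtcaagatat

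Of the 9 exon ends of Lhx6, 4 read CAG and 2 AAG; of the 3 of Pvalb, 0 read CAG and 1 AAG; and both of Dlx1 read CAG. Over all 75 introns of the 10 genes, 17 exon ends (22.7%) read CAG and 19 (25.3%) AAG, read on the transcript's own strand. Among 157461 introns of the 14911 genes matched to this annotation, the shares were 23.8% and 19.1%. The introns that follow these exons ranged in Lhx6 from 183 to 8424 nt, and the last intron of Pvalb was the longest of the 3 genes at 9531 nt. The scores are given per gene, so they do not show which intron a change belongs to, and intron bases were not used here.

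Splicing scores of most interneuron identity genes lay low in the table, and 2 of the 10 rose with N40K. Lhx6 rose 1.95-fold and Pvalb 1.55-fold, and 0 genes fell (limma on log2(score + 0.01), Benjamini-Hochberg adjusted p under 0.05 over all 15705 genes). Over all genes tested, 21.5% rose and 4.11% fell, so the members' share of rises was near that of all genes. The median ratio of mean scores was 1.07 over the 10 genes and 1.11 over all genes. The N40K and control libraries did not overlap for 3 members, with N40K above in 2 and below in 1; over all genes, N40K lay above in 33.6% and below in 8.67%. The members are listed by score in the plot of scores by library.

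**Figure D1:**
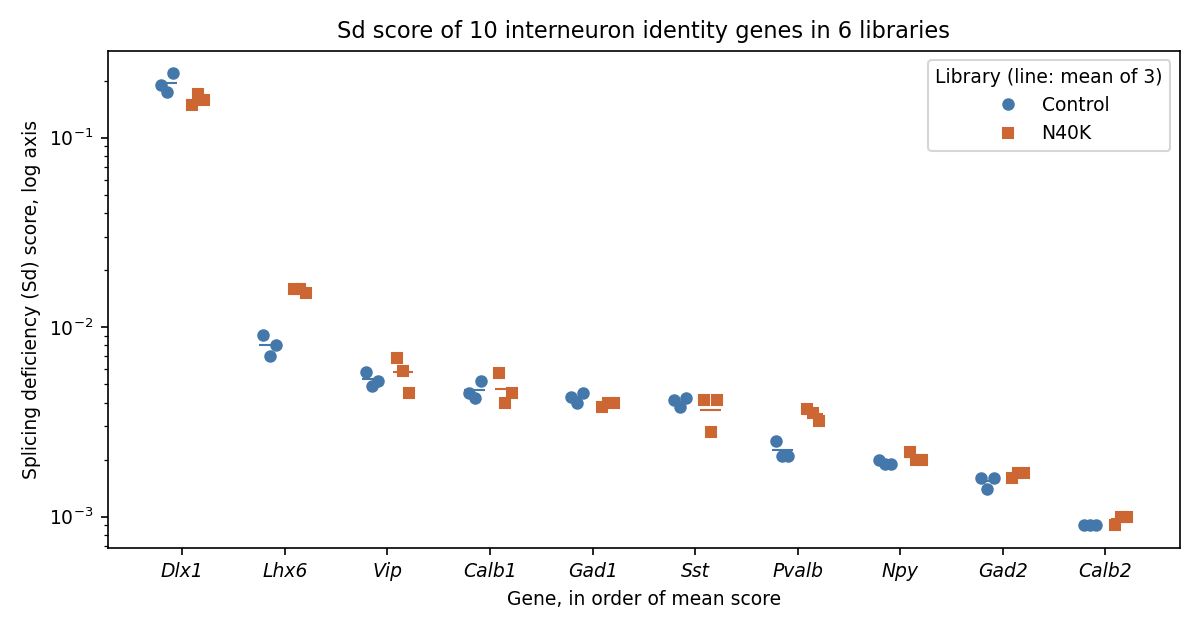
Sd score (vertical, log axis) of each of the 10 interneuron identity genes, ordered by mean score, in 3 control libraries (circles) and 3 N40K libraries (squares), with a line at each group's mean. Lhx6 and Pvalb lie higher in all N40K libraries than in all control libraries and Dlx1 lies lower, while the groups of the other 7 genes overlap.

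In control neurons Dlx1 had the highest score, 0.194 ± 0.0227 (mean ± SD, n = 3), followed by Lhx6 at 0.00803 ± 0.00105. Vip, Calb1, Gad1 and Sst came next, between 0.0053 for Vip and 0.00403 for Sst, and each of these overlapped its neighbour in the order. Pvalb, Npy, Gad2 and Calb2 then stood apart from each other, the last at 0.0009 in all 3 control libraries. Within a library, the percentile of a gene's score among all genes had a median over the 6 libraries of 89.0 for Dlx1, 44.4 for Lhx6 and at most 28.4 for the other members, down to 2.71 for Calb2. Whether gene length or RNA amount enters the score is not known, so this is an order of scores and not of RNA amounts.

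Among transcription factors, Lhx6 had the largest change of the set. Lhx6 is a LIM homeodomain factor that specifies parvalbumin and somatostatin interneurons. Its scores were 0.0091, 0.007 and 0.008 in control libraries 1 to 3 and 0.0158, 0.0159 and 0.0152 in N40K libraries 1 to 3. The lowest N40K library stood well above the highest control library, and the N40K libraries were the closer together. The log2 change was 0.51 ± 0.06 (SE; limma adjusted p = 0.00407), or 0.97 with a 95% interval of 0.69 to 1.25 without a pseudocount. Leaving out any 1 library kept the call, with adjusted p from 0.00887 to 0.0236, and so did each scaling between libraries. By annotation Lhx6 overlaps 1 other gene, annotated as a miscellaneous RNA on the same strand.

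Dlx1, a homeodomain factor needed for the migration and survival of interneurons, ran the other way. Its scores were 0.1901, 0.1737 and 0.2185 in control libraries and 0.148, 0.169 and 0.1575 in N40K libraries. All N40K libraries lay below all control libraries, by a small margin between N40K 2 and control 2. The log2 change of -0.28 ± 0.11 (SE) did not pass the test (limma adjusted p = 0.124). It passed as a fall once libraries were centred on their medians (0.0413), were quantile normalized (0.0453) or were centred without a pseudocount (0.0266 and 0.0345). The antisense gene Dlx1as overlaps Dlx1, and since the sources used here do not say whether counting used strand, reads of the pair cannot be told apart.

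Among calcium-binding proteins, Pvalb rose and Calb1 and Calb2 did not pass the test with scores as deposited; the difference between them was not tested. Pvalb, the calcium buffer of fast-spiking basket and chandelier cells, had scores of 0.0025, 0.0021 and 0.0021 in control libraries and 0.0037, 0.0035 and 0.0032 in N40K libraries. The groups did not overlap. The log2 change was 0.14 ± 0.02 (SE; limma adjusted p = 0.0101), and without a pseudocount it was 0.64 with a 95% interval of 0.37 to 0.90. A score this far under the pseudocount of 0.01 changes little on the tested scale. The call held without any 1 library (adjusted p from 0.0178 to 0.0461) but ended after centring on library medians (0.895) and quantile normalization (0.118). Without a pseudocount it held when each library was centred on the median deviation of its genes (0.032) and was at 0.0504 after centring on library medians.

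Calb1, which encodes calbindin, had scores of 0.0045, 0.0042 and 0.0052 in control libraries and 0.0057, 0.004 and 0.0045 in N40K libraries. The 3 N40K libraries spanned the whole control range. Its log2 change without a pseudocount was 0.02, with a 95% interval of -0.37 to 0.41 (limma adjusted p = 0.945). Calb2, which encodes calretinin, was at 0.0009 in every control library and at 0.0009, 0.001 and 0.001 in N40K libraries, which is 1 step of the last deposited decimal (limma adjusted p = 0.511). That step is 10.7% of its mean score, the coarsest of the set.

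The 2 glutamate decarboxylase genes did not pass the test, and their ratios lay on opposite sides of 1. Gad1 encodes the isoform that makes most of the GABA in neurons, and Gad2 the isoform found largely at nerve terminals. Gad1 had scores of 0.0043, 0.004 and 0.0045 in control libraries and 0.0038, 0.004 and 0.004 in N40K libraries. Gad2 had scores of 0.0016, 0.0014 and 0.0016 in control libraries and 0.0016, 0.0017 and 0.0017 in N40K libraries. In both genes the groups touched at 1 value. Without a pseudocount the log2 change was -0.12 for Gad1, with a 95% interval of -0.31 to 0.08 (limma adjusted p = 0.346), and 0.12 for Gad2, with an interval of -0.09 to 0.33 (0.355). Changes of the size seen in Lhx6 lay outside both intervals. Gad1 passed as a fall after centring on library medians (0.0132), quantile normalization (0.011) and both centrings without a pseudocount (0.0223 and 0.0343), and Gad2 as a fall after centring on library medians alone (0.024). Gad1 overlaps the antisense gene Gad1os, and Gad2 overlaps 2 microRNA genes on its own strand.

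None of the 3 neuropeptide genes passed the test with scores as deposited. Sst, which encodes somatostatin and has 1 intron, had scores of 0.0041, 0.0038 and 0.0042 in control libraries and 0.0041, 0.0028 and 0.0041 in N40K libraries. N40K library 2 alone was low, and without it the log2 change turned from -0.04 to 0.01 (limma adjusted p = 0.557 and 0.881). After centring on library medians Sst passed as a fall (log2 change -0.17, 0.0416). Npy, which encodes neuropeptide Y, had scores of 0.002, 0.0019 and 0.0019 in control libraries and 0.0022, 0.002 and 0.002 in N40K libraries (adjusted p = 0.415, and 0.0502 after centring on library medians). These lay within 3 steps of the last decimal. Vip, which encodes vasoactive intestinal peptide, had scores of 0.0058, 0.0049 and 0.0052 in control libraries and 0.0069, 0.0059 and 0.0045 in N40K libraries (0.679). Its N40K libraries held both the highest and the lowest of the 6 values. The 95% intervals of the log2 change without a pseudocount were -0.58 to 0.26 for Sst, -0.09 to 0.28 for Npy and -0.33 to 0.53 for Vip.

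Directions of the small changes depended on how libraries were scaled. The median log2(score + 0.01) of a library was 0.13 higher in N40K than in control neurons, and the median log2 score 0.22 higher. Relative to library medians, 1 member rose (Lhx6) and 5 fell (Calb2, Dlx1, Gad1, Gad2 and Sst), where 9.75% of all genes rose and 18.4% fell. This centring takes the same amount from every gene of a library, while scores far under 0.01 change little on that scale. Gad2 and Calb2 counted as falls though their mean scores were higher in N40K libraries. Without a pseudocount, Gad2, Calb2 and Sst did not pass after centring on library medians (limma adjusted p = 0.3525, 0.2626 and 0.1358). After quantile normalization 1 rose and 3 fell (Gad1, Dlx1 and Calb2), against 12.9% and 12% of all genes. Without a pseudocount, Gad1 and Dlx1 fell and Lhx6 rose under both centrings, against 14.4% rises and 11.2% falls of all genes with library medians and 16.1% and 8.98% with median deviations. Lhx6 was the only member called in the same direction in each fit that included it.

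**Figure D2:**
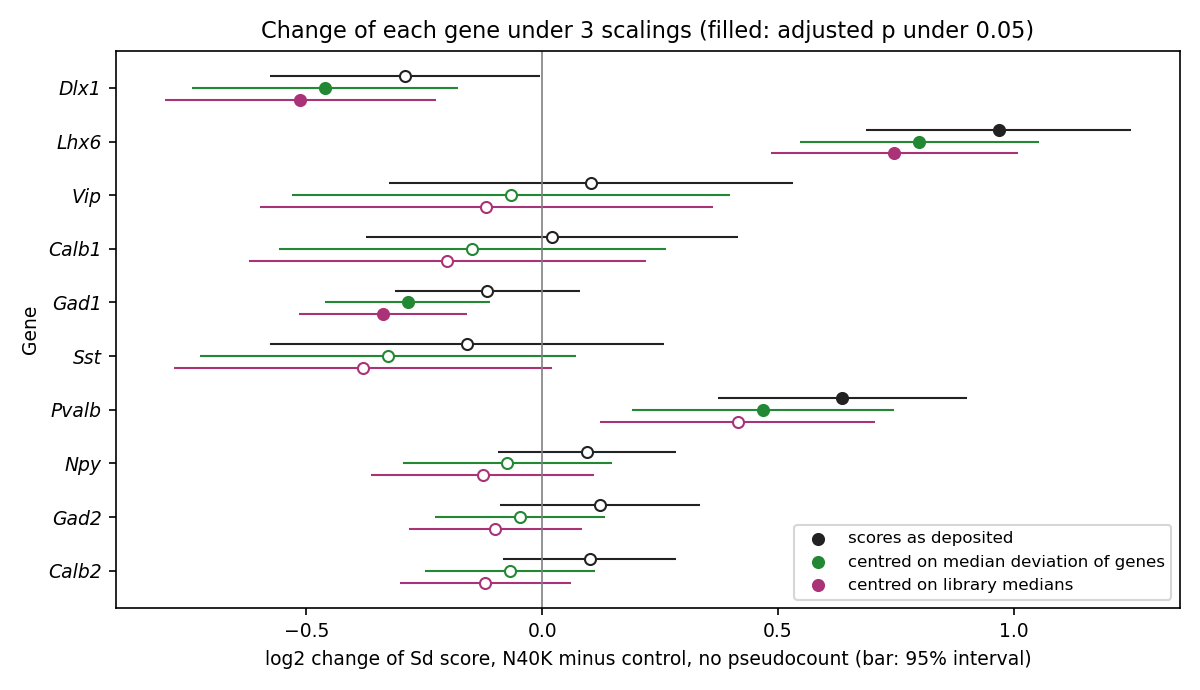
log2 change of the Sd score without a pseudocount (horizontal, N40K minus control, bars: 95% intervals) of each member with scores as deposited and after 2 kinds of centring. Filled points have a limma adjusted p under 0.05: Lhx6 is filled in all 3 fits, Pvalb in 2, and Gad1 and Dlx1 once libraries are centred.

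The members shared few structural features. The transcripts used had from 1 intron in Sst to 16 in Gad1, and summed intron lengths from 665 nt in Sst to 65926 nt in Gad2; all matched genes had a median of 8 introns and 19998 nt. Lhx6 was close to that median, with 9 introns and 19974 nt, and Pvalb had 3 introns and 12147 nt. Across all matched genes, which are not independent replicates, score and summed intron length had a Spearman rho of -0.59. Across the 10 members rho was -0.38, where Sst stood out with a low score for a gene of little intron sequence. The log2 ratio of scores and intron length had a rho of 0.39 over all matched genes and 0.39 over the members, and Gad2, with the most intron sequence of the set, did not pass the test.

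**Figure D3:**
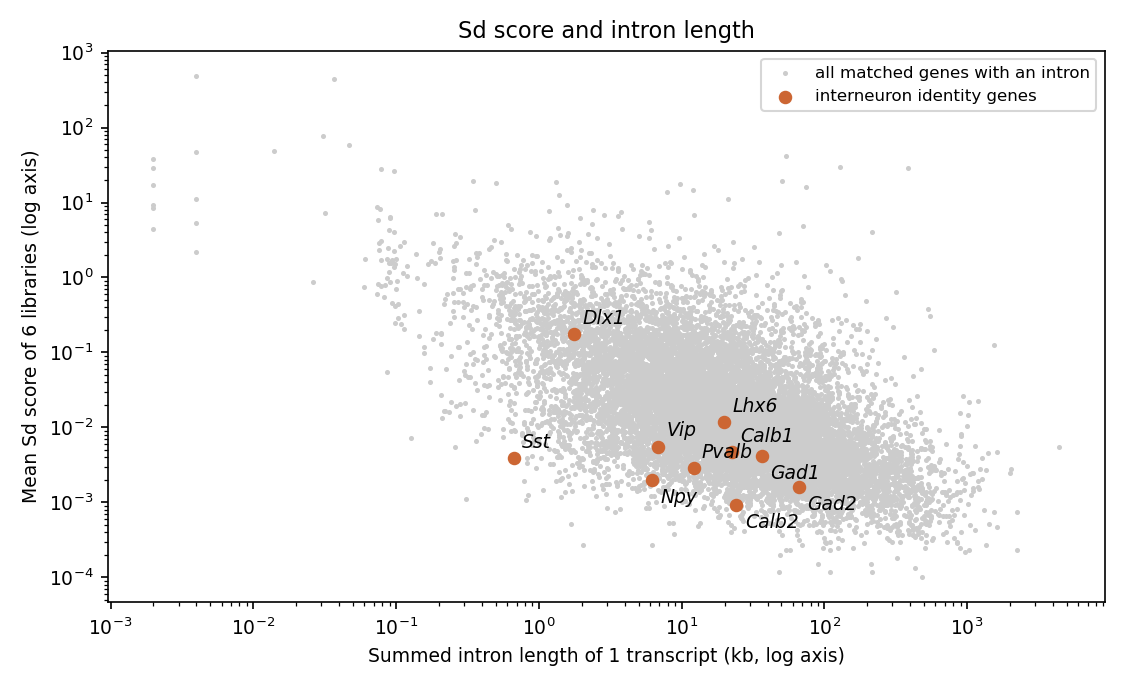
Mean Sd score of the 6 libraries (vertical, log axis) against the summed intron length of 1 transcript (horizontal, kb, log axis) for all matched genes with an intron (grey) and the 10 members (coloured). Dlx1 lies high among genes with little intron sequence, and Sst lies low there.

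Genes whose pattern over the 6 libraries was most like that of Lhx6 were Pik3r5, 0610007L01Rik and 2610318N02Rik (Pearson r of log2(score + 0.01) = 0.999, 0.999 and 0.998). For Pvalb they were Gm17066, Jakmip3 and Exosc8 (r = 0.994 each). With 6 points in 2 groups such values were common: 1181 genes had an r over 0.95 with Lhx6 and 388 with Pvalb.

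Other genes of the GABAergic programme were read from the same fit. Of 7 genes for GABA transport and breakdown, 0 rose and 0 fell. Slc32a1, which loads GABA into vesicles and was named after its values were seen, had scores of 0.007, 0.0067 and 0.0086 in control libraries and 0.0047, 0.0045 and 0.0062 in N40K libraries. The groups did not overlap, and the ratio of 0.691 had a limma adjusted p of 0.0613, which became 0.0433 without N40K 3 and 0.00891 after centring on library medians. The antisense gene Gm14205 overlaps it.

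Of 23 names of interneuron transcription factors and a related RNA, 16 had a score; 2 rose and 1 fell. Dlx6as1 (ENSMUSG00000090063), a long noncoding RNA gene that overlaps Dlx6 on the other strand, had a ratio of 1.70 (limma adjusted p = 0.0177). That call ended without control 2 (0.059), N40K 2 (0.0593) or N40K 3 (0.0535). Npas3, a bHLH-PAS factor, had a ratio of 1.67 (0.0362), and lost its call without control 1, 2 or 3 or N40K 2 or 3 (0.0905, 0.0948, 0.113, 0.0793 and 0.101). Maf, a bZIP factor of ventrally derived interneurons, had a ratio of 0.461 (0.0245), and lost its call without control 1 or N40K 1, 2 or 3 (0.0688, 0.0579, 0.0782 and 0.0581). The transcript used for Maf holds 0 introns, so the gene model behind its score is not known here. After centring on library medians, Npas3 was at 0.734 and the other two kept their calls. Npas3 also missed the threshold after quantile normalization (0.0888), with eBayes without trend (0.0743) and with library medians and no pseudocount (0.0558). It passed with median deviations and no pseudocount (limma adjusted p = 0.0464).

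Dlx2, which neighbours Dlx1 and acts with it, resembled it. Its scores were 0.2705, 0.2069 and 0.2314 in control libraries and 0.1918, 0.1962 and 0.1892 in N40K libraries, without overlap (ratio 0.814, limma adjusted p = 0.133). Npas1, named like Dlx2 after its values were seen, also had all N40K libraries below all control libraries, with a ratio of 0.862 (limma adjusted p = 0.166). Dlx5 and Dlx6, also named afterwards, had ratios of 0.877 and 0.963 with overlapping groups. After centring on library medians, Dlx2 and Npas1 passed as falls (0.0449 and 0.0362). Dlx2 did not pass after quantile normalization (limma adjusted p = 0.0603). Without a pseudocount it passed as a fall after library medians (0.02775) and median deviations (0.03422).

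Among 31 names of interneuron peptides, receptors and surface markers, 23 had a score; 5 rose and 1 fell. Pdyn, which encodes the prodynorphin precursor of opioid peptides, had scores of 0.0121, 0.0058 and 0.0063 in control libraries and 0.0494, 0.0435 and 0.0469 in N40K libraries. Every N40K library was well above every control library, with a ratio of 5.78 and a log2 change of 1.66 ± 0.14 (SE; limma adjusted p = 0.0025). Crhbp, which encodes a binding protein for corticotropin-releasing hormone, had a ratio of 1.80 (0.01). Both overlap no other gene by annotation, and both calls held under every alternative run, with adjusted p up to 0.0264 for Pdyn and 0.0481 for Crhbp.

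The other rises in this list were smaller in score. Syt2, a synaptotagmin of parvalbumin terminals, had a ratio of 2.68 (limma adjusted p = 0.0137), which ended without control 2 (0.0538). Reln, the secreted glycoprotein of Cajal-Retzius cells and some interneurons, had a ratio of 1.49 (0.0171), which ended without control 1, 2 or 3 or N40K 2 (0.0581, 0.0612, 0.0626 and 0.0572). Elfn1, an adhesion protein at synapses onto somatostatin cells, had a ratio of 1.69 (0.0284), which ended without control 1, 2 or 3 (0.0858, 0.0783 and 0.089). The fall was in Cck, the cholecystokinin gene, with a ratio of 0.614 (0.0218), which ended without N40K 1, 2 or 3 (0.0524, 0.07 and 0.0534). After centring on library medians the calls of Syt2, Reln and Elfn1 ended (0.0534, 0.145 and 0.217), and that of Cck held. Reln was at 0.0902 after quantile normalization and 0.0963 with eBayes without trend, and Elfn1 at 0.109 after quantile normalization and 0.0665 with library medians and no pseudocount. Syt2 passed after quantile normalization (limma adjusted p = 0.0254). Without a pseudocount, Syt2 and Reln kept their calls after library medians (0.0181 and 0.0279) and median deviations (0.0168 and 0.0209). Elfn1 kept its call after median deviations without a pseudocount (0.0498). By annotation Syt2 overlaps the protein-coding gene Ppp1r12b on the other strand, Reln overlaps 7 genes, Elfn1 overlaps 1 and Cck 0. Elfn1 and Cck were named after their values were seen.

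These 3 lists held 46 scored genes in all, of which 7 rose and 2 fell, where 21.5% of all genes rose and 4.11% fell; the median ratio was 1.06. Relative to library medians 3 rose and 17 fell, against 9.75% and 18.4% of all genes. After quantile normalization 4 rose and 9 fell, against 12.9% and 12%. Without a pseudocount and centred on median deviations 7 rose and 9 fell, against 16.1% and 8.98%. Without control 2, 2 rose and 3 fell, against 1613 rises and 402 falls among all 15705 genes. Without N40K 1, 11 rose and 0 fell, against 3729 and 486 of all genes. Without control 1, control 3 or N40K 2, 4 rose each time, with 1, 2 and 0 falls. All genes then had 2028, 1630 and 2086 rises and 303, 317 and 338 falls.

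Excitatory neuron genes, the class the promoter is used for, had 2 rises and 4 falls among 21 scored genes, where 21.5% of all genes rose and 4.11% fell, and a median ratio of 1.06. Camk2a, a CaMKII gene of excitatory neurons, had scores of 0.0032, 0.003 and 0.0032 in control libraries and 0.0043, 0.0046 and 0.0053 in N40K libraries (limma adjusted p = 0.0132; 0.0537 without control 2 and 0.05001 without control 3). Slc17a6, a vesicular glutamate transporter gene, had a ratio of 1.57 (0.0139; 0.0518 without control 1 and 0.0501 without control 3). The falls were in the homeobox genes Emx1, Emx2 and Cux1 and in Crym, with ratios of 0.709, 0.602, 0.667 and 0.705. Their adjusted p-values of 0.0229, 0.0477, 0.0341 and 0.0184 rose above the threshold without certain libraries: Emx1 without control 1, control 2 or N40K 3 (up to 0.0745), Emx2 without any control library or N40K 2 (up to 0.127), Cux1 without any control library or N40K 3 (up to 0.103), and Crym without control 1, control 3 or N40K 2 (up to 0.0661). After centring on library medians Camk2a and Slc17a6 no longer passed (limma adjusted p = 0.279 and 0.932). In that fit 0 excitatory genes rose and 11 fell, against 9.75% and 18.4% of all genes. After quantile normalization Camk2a passed (0.0305) and Slc17a6 was at 0.0592. Without a pseudocount Camk2a and Slc17a6 kept their rises after library medians (0.017 and 0.0261) and after median deviations (0.0137 and 0.0206). The call of Emx2 also ended without a pseudocount (0.0604), with one of 0.001 (0.0578), without the lowest 25% of genes (0.055) and with eBayes without trend (0.0645), and that of Cux1 with eBayes without trend (0.189). Emx2 and Cux1 were named after their values were seen. Whether interneuron and excitatory genes differed in their response was not tested.

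**Figure D4:**
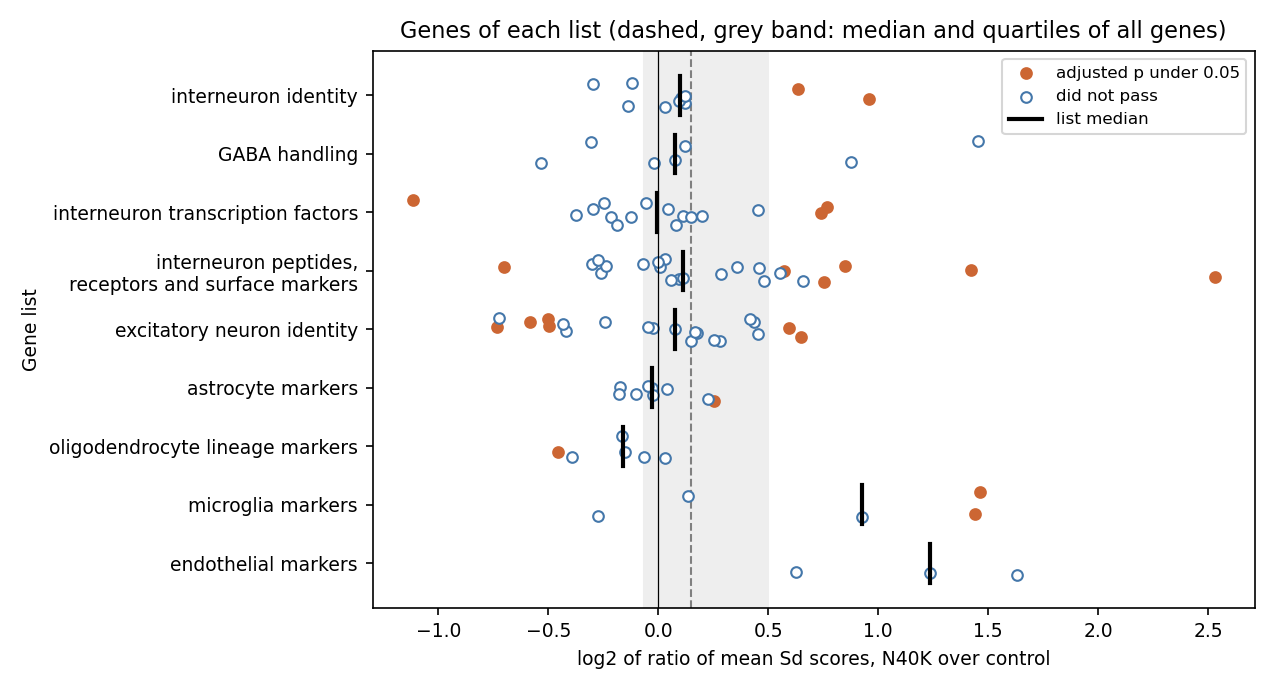
log2 of the ratio of mean Sd scores, N40K over control (horizontal), for each scored gene of the 9 lists, with filled points for a limma adjusted p under 0.05 and a bar at each list's median. The dashed line and band give the median and quartiles of all genes; Pdyn lies farthest to the right and Maf farthest to the left.

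Markers of other cells a cortical culture can hold also had scores, which measure splicing and not the number of those cells. The counts below stand against 21.5% rises and 4.11% falls over all genes. Of 9 astrocyte markers 1 rose, the glutamate transporter gene Slc1a2 (ratio 1.19, limma adjusted p = 0.0422), whose call was lost without any 1 library (0.0665 to 0.131). It also ended with a pseudocount of 0.001 (0.0539) or none (0.0581), with eBayes without trend (0.102) and after library medians (0.29) or quantile normalization (0.751). Of 6 scored oligodendrocyte lineage markers 1 fell, the myelin gene Mog (0.729, 0.0195; 0.068, 0.0683 and 0.056 without control 1, control 2 and N40K 3). Of 5 scored microglia markers 2 rose, the cytokine receptor gene Csf1r (2.76, 0.0131; 0.0536 without control 3) and the integrin gene Itgam (2.71, 0.0174; 0.0573 and 0.0635 without control 1 and control 3). Of 3 scored endothelial markers 0 rose and 0 fell, though their ratios ran from 1.54 to 3.09. All N40K libraries lay above all control libraries in 2 of these 3 markers, and in 33.6% of all genes. Median ratios were 0.979 for astrocyte, 0.896 for oligodendrocyte lineage, 1.90 for microglia and 2.36 for endothelial markers, against 1.11 over all genes. Summed marker levels cannot be formed from scores, so the part of other cells in the changes of Lhx6 and Pvalb was not tested.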

How the data were processed

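RNA of 6 libraries was measured; per the labels' protocols, they were stranded poly(A) libraries with paired reads of 100 nt. Tools named in the submitters' processing notes, without their roles, are STAR, BWA, CASAVA and bedtools 2.16.1, and the build is mm9. The authors deposited the Sd scores as 1 table of a linear ratio with 4 decimals, the lowest of them 0.0001. Read totals are not given, so depth is unknown and intervals cover only the spread of libraries.

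Columns were assigned by name (0 left unused, 0 identical pairs). The test was limma 3.58.1 (R 4.3.3; lmFit, eBayes with trend, 2-sided) on log2(score + 0.01), N40K against control. P-values were adjusted by Benjamini-Hochberg over all 15705 genes, with calls at adjusted p under 0.05. The filter (above 0 in at least 3 libraries) removed 0 genes. This scale understates changes of low scores, so ratios of means and fits with no pseudocount are given too. "Rose" and "fell" refer to scores as deposited unless a scaling is named. No set tests were run; lists are described by counts and medians.

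The members and lists were chosen with earlier results of these data known. Named genes were all members, up to 4 called genes per list, Camk2a, and the 3 genes most like each called member. Slc32a1, Dlx2, Dlx5, Dlx6, Npas1, Elfn1, Cck, Emx2 and Cux1 were named outside this rule, after their values were seen. Gene models came from GENCODE M21 (GRCm38, another build than mm9) by Ensembl identifier for 14911 genes (94.9%), so no coordinates are printed. The transcript used is ranked first by principal-isoform tag, consensus coding sequence and length.

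The alternatives tried were other pseudocounts (0.001, 0.1, none), other filters (none, or leaving out the 25% of genes with the lowest mean score), leaving out each library, library-median centring, quantile normalization, a block for the replicate number, and eBayes without trend. Added after seeing the data were both centrings without a pseudocount and a fit without genes that overlap another. Results of 1 listed gene are not reported here.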

Additional observations from a re-analysis of the deposited data

How the results depend on the processing

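Of the interneuron identity genes, Lhx6 kept its rise in every fit that included it, and Pvalb lost its call under the 3 scalings named beside it. With a library left out, 2 members rose and 0 fell each time; Pvalb was not among the genes without the lowest 25% by mean score, nor Lhx6 among those that overlap no other gene, so 1 member rose in each of these fits. Centring on library medians gave 1 rise and 5 falls, quantile normalization 1 and 3, and, without a pseudocount, library medians 1 and 2 and median deviations 2 and 2. The other 46 interneuron genes gave 3 and 17, 4 and 9, 5 and 9, and 7 and 9 in that order, 4 and 1 without the lowest genes, 2 and 1 without overlapping genes, 3 and 3 with the block, and 2 to 11 rises and 0 to 3 falls with a library left out. Excitatory genes gave 0 rises and 11 falls after library medians and 1 and 6 after quantile normalization. Without a pseudocount they gave 2 and 6 under both library medians and median deviations. Their counts were 0 and 1 without the lowest genes, 0 and 2 without overlapping genes, and 2 and 2 with the block or with eBayes without trend. With a library left out they were 0 to 4 rises and 1 to 4 falls. Over all genes the 3372 rises and 645 falls became 1531 and 2883 with library medians, 2022 and 1883 with quantile normalization, 2259 and 1765 or 2533 and 1410 without a pseudocount (library medians, median deviations), 1968 and 483 of 11773 genes without the lowest, 963 and 219 of 6082 without overlapping genes, and 1613 to 3729 rises and 303 to 486 falls with a library left out. Apart from fits on fewer genes or libraries, the cause was not tested.

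Small changes turned in direction. After library medians, the log2 change was -0.114 for Gad2, -0.114 for Npy, -0.122 for Calb1, -0.122 for Calb2, -0.0894 for Vip, -0.0518 for Reln, -0.00344 for Slc17a6 and -0.0557 for Slc1a2. After quantile normalization it was -0.0345 for Gad2, -0.0441 for Npy, -0.0816 for Calb1, -0.0278 for Calb2, -0.0548 for Vip and -0.0119 for Slc1a2. Without a pseudocount, library medians and median deviations gave -0.099 and -0.0466 for Gad2, -0.126 and -0.074 for Npy, -0.201 and -0.149 for Calb1, -0.12 and -0.0678 for Calb2, and -0.118 and -0.0659 for Vip. In those fits Reln (0.345 and 0.398), Slc17a6 (0.424 and 0.476) and Slc1a2 (0.0324 and 0.0847) stayed above 0. Reln and Slc17a6 kept their calls there, and Slc1a2 did not pass (limma adjusted p = 0.808 and 0.49). With a library left out, ranges crossed 0 for Sst (-0.0628 to 0.00694), Calb1 (-0.0379 to 0.0447), Vip (-0.0106 to 0.0999) and Dlx6 (-0.147 to 0.0493).

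Libraries share a replicate number across groups, but same-numbered libraries did not deviate together (correlations of -0.07, 0.04 and -0.02 for numbers 1, 2 and 3). With 3 libraries per group, such correlations cannot show whether same-numbered libraries shared a culture or preparation. With the replicate block 2 members rose and 0 fell, and 1770 of all genes rose and 328 fell. Adjusted p-values with the block were above the threshold for Dlx6as1 (0.064), Npas3 (0.0727), Reln (0.0577), Elfn1 (0.0528), Cux1 (0.104), Emx2 (0.057), Slc1a2 (0.111), Mog (0.0608) and Itgam (0.0603), and under it for Slc32a1 (0.0379). The last deposited decimal limits what can be seen in Calb2, Gad2 and Npy, and depth is unknown.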
